A study of Mus musculus with 22 samples.

Results

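Cytochrome P450 genes of families 1 to 4 were described across 6 mouse livers. The set held every gene whose symbol named a P450 of these families with a number as its last part, except Cyp1a2, Cyp2e1 and Cyp3a16, and it came to 72 of the 24786 genes of the deposited liver table. The 72 genes fell into 20 subfamilies, the largest being Cyp2c with 15 members, Cyp2d and Cyp4f with 9 each, and Cyp2j with 7. In the GENCODE annotation of GRCm38 most of them lay in clusters of related genes: the Cyp2a, Cyp2b, Cyp2f, Cyp2g, Cyp2s and Cyp2t genes on chromosome 7, Cyp2c on chromosome 19, Cyp2d on chromosome 15, Cyp3a on chromosome 5, Cyp2j and Cyp4a on chromosome 4, and all Cyp4f genes but Cyp4f18 on chromosome 17. Cyp2d13, a transcribed pseudogene in RefSeq, was the 1 member without a gene model there under its symbol.

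Microsomal P450 enzymes sit in the endoplasmic reticulum, carry a haem group and insert an oxygen atom into lipophilic substrates, with electrons handed on by P450 oxidoreductase and cytochrome b5. Families 1 to 3 oxidise most drugs, carcinogens and steroids as well as retinoids and arachidonic acid, whereas family 4 mainly hydroxylates fatty acids and leukotrienes at the end of the chain. In liver they are made chiefly by hepatocytes, many of them around the central vein. The nuclear receptors CAR, PXR and PPARα, the aryl hydrocarbon receptor, the liver factors HNF4α and C/EBPα and the rhythm of growth hormone are their best known regulators.

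The study sequenced bulk RNA from a mouse model that its title describes as an overlap of autoimmune hepatitis and primary biliary cirrhosis. Each of 3 groups of C57BL/6 livers, all labelled as the second batch, had 2 libraries, and every library carried the same age range of 2 to 4 weeks. The age of single animals within that range is not given. A difference in age or maturation between groups therefore cannot be told apart from one of genotype or depletion. Untreated Aire+/+ mice were the control. Untreated TG Aire-/- mice lacked Aire, which drives tissue-restricted genes in the thymic medulla, and carried the transgene that the title names as dnTGFβRII, a dominant-negative type II TGF-β receptor that in the line of that name is driven in T cells by the Cd4 promoter. CD8-depleted mice had the TG Aire-/- genotype and were labelled as depleted of CD8+ T cells, by an agent and on a schedule that the labels do not name. Against Aire+/+ liver the effects of the transgene and of the loss of Aire cannot be told apart, and the 3 comparisons below share libraries. The labels do not say that replicates were separate animals, so p-values may measure a partly technical spread, and in whole liver fewer hepatocytes and less RNA per hepatocyte cannot be told apart.

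Depth inferred from the step between low values was 20300000 to 22680000 reads per liver, at which 3 reads on 2 kilobases equal 0.0661 to 0.0739 RPKM (reads scaled to gene length and library depth), a floor that covers counting error only. Cd8a stood at 0.161 and 0.2203 RPKM in Aire+/+ livers, 8.76 and 3.75 in TG Aire-/- livers and 0 and 0.187 in CD8-depleted livers. Aire, at 0 to 0.301 RPKM in the 6 livers, could not check the genotype. Xist and the Y-linked Ddx3y read replicate 1 of the Aire+/+ and TG Aire-/- groups as male, replicate 2 of both as female, and both CD8-depleted libraries as male. The liver label held in all 6 libraries, with the hepatocyte product Alb at 18960 to 49400 RPKM. The libraries differed in markers of other cells and in fetal genes. The summed RPKM of 12 leukocyte markers was 89.6 and 92.8 in Aire+/+, 2157 and 2384 in TG Aire-/- and 206 and 1297 in CD8-depleted livers, and that of 7 erythroid markers 2338 and 2032, 30610 and 17500, and 485 and 1092. None of these markers was at 0 in all libraries of a group. Lyz2 led the leukocyte sum in Aire+/+ livers (39.1 and 39.9). Cd74 led it in TG Aire-/- (1615 and 1742) and CD8-depleted livers (137 and 995), so these sums mainly follow Cd74. Ptprc, another of the leukocyte markers, stood at 1.47 and 2.54, 13.9 and 19.2, and 3.35 and 7.14 in the 3 groups. The 9 fetal liver genes summed to 516 and 676, 1018 and 987, and 12.7 and 16.6, led by H19 in Aire+/+ (488 and 644) and CD8-depleted livers (7.53 and 11.7) and by Afp in TG Aire-/- livers (523 and 742). Of the fetal genes 1 was at 0 in both Aire+/+ libraries and 2 in both CD8-depleted libraries. The part of these cells and genes in the results below was not tested.

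Of the 72 members 49 passed the filter of at least 1 RPKM in at least 2 livers and were tested. The other 23 comprised 19 members below 1 RPKM in every liver, among them Cyp2w1 at 0 in all 6, and Cyp1b1, Cyp2b10, Cyp2c38 and Cyp2d12, which reached 1 RPKM in a single liver. Cyp1a1, the classical target of the aryl hydrocarbon receptor, was among the low ones with 0 to 0.437 RPKM. Cyp2b10, the classical target of CAR, reached 5.10 RPKM in CD8-depleted replicate 1 and stood at 0.145 to 0.961 in the other 5 livers. Cyp2c38 reached 8.10 RPKM in CD8-depleted replicate 2 and stood at 0.0444 to 0.690 in the rest. Cyp1b1, a steroid and carcinogen hydroxylase known mostly from cells other than hepatocytes, was highest in TG Aire-/- replicate 2, at 1.56 RPKM.

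Summed over all 72 members, the P450 genes held 6631 and 7123 RPKM in Aire+/+ livers, 2567 and 1592 in TG Aire-/- livers and 7993 and 7404 in CD8-depleted livers. Both TG Aire-/- libraries lay below the other 4, and the Aire+/+ mean was 3.31 times theirs. As a share of all RPKM these sums were 1.65% and 1.90%, 0.623% and 0.436%, and 2.22% and 1.91%. Cyp3a11, the main mouse enzyme of the drug-oxidising Cyp3a subfamily, led the members in Aire+/+ and CD8-depleted livers. It made up 15.6% and 20.9% of their sum in Aire+/+ livers and 18.5% and 41.1% in CD8-depleted livers. Cyp2a12 led in TG Aire-/- replicate 1 (14.6%) and Cyp4a14 in replicate 2 (14.2%). The plot of summed levels by subfamily shows how unequal the subfamilies were: Cyp2c differed 6.37-fold between the Aire+/+ and TG Aire-/- means and Cyp3a 4.54-fold, whereas Cyp4a differed 1.20-fold.

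**Figure D1:**
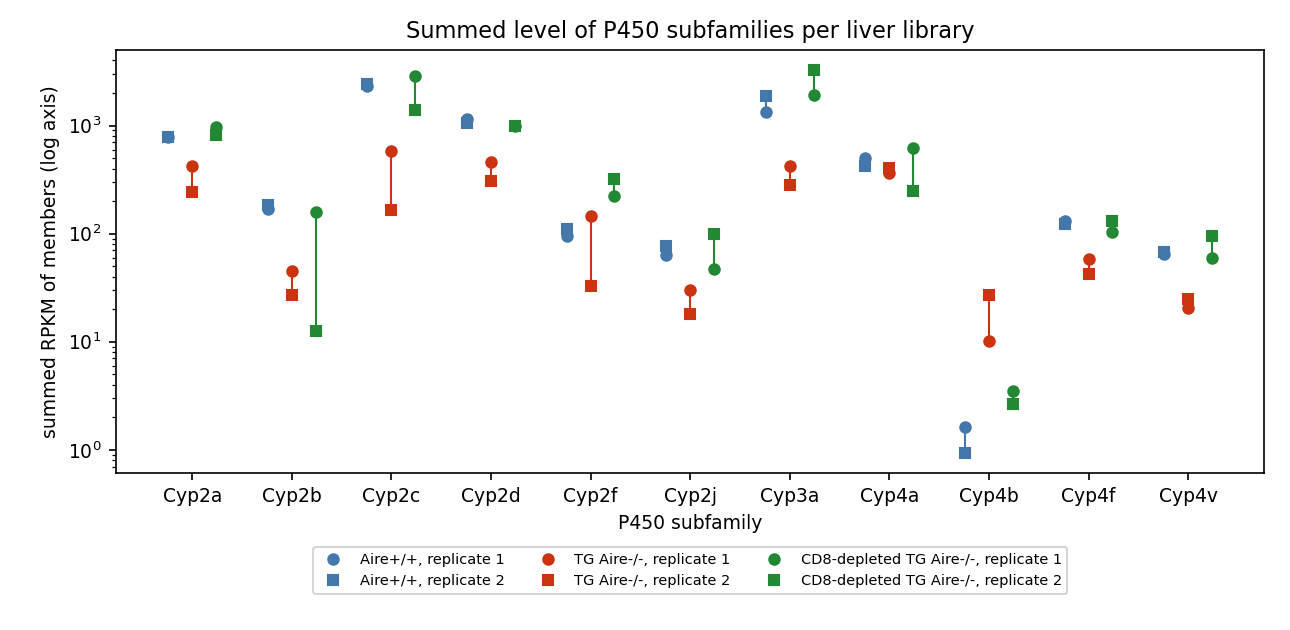
Summed RPKM (vertical log axis) of the members of 11 P450 subfamilies in the 6 liver libraries; circles are replicate 1, squares replicate 2, and a line joins the libraries of a group. Both TG Aire-/- libraries lie below both Aire+/+ libraries for every subfamily shown except Cyp2f, where they lie on both sides, and Cyp4b, where they lie above; the gap is narrowest for Cyp4a.

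The first comparison, TG Aire-/- against Aire+/+ liver, asked how P450 expression differed in diseased liver. Members fell broadly in the Cyp2c, Cyp2d and Cyp3a subfamilies, in Cyp2a5 and in Cyp4f14, while Cyp4b1 and Cyp4f16, genes of low level in control liver, rose. Of 49 tested members 25 were lower and 4 higher (limma on log2(RPKM + 1), adjusted p under 0.05). Cyp2b13, Cyp2s1 and Cyp4f18 reached the filter only through the group in which they were high, and without these 3 the count was 24 lower and 2 higher of 46, where of all 12231 genes tested 37.3% passed, 5.5% falling and 31.8% rising. The median log2 difference was −1.42 over the 49 members, −1.44 over the 46 and 0.53 over all genes. In 38 members both TG Aire-/- libraries lay below both Aire+/+ libraries, which held for 15.4% of all genes, and in 5 they lay above, which held for 63%. The 38 include Cyp2b13, and the 5 include Cyp2s1 and Cyp4f18. The counts under other settings below also keep these 3 genes wherever they were tested. With other scalings lower members still outnumbered higher ones, with 28 lower and 3 higher by median-of-ratios, 24 and 2 by quantile normalization, and 13 and 7 when libraries were scaled to 15 hepatocyte secretory genes. These scalings moved the median of all genes to −0.05, −0.06 and 1.35. Under the hepatocyte scaling 12 of the lower members no longer passed (log2 −0.89 to −0.27, adjusted p 0.0725 to 0.607). Without a filter 11 calls were lost (adjusted p 0.0588 to 0.123), those of Cyp2b13, Cyp2c23, Cyp2c37, Cyp2c39, Cyp2c55, Cyp2c68, Cyp2s1, Cyp3a25, Cyp3a59, Cyp4f15 and Cyp4f18. Many calls rested on single libraries: 12 members fell and 2 rose without Aire+/+ replicate 1, 8 and 2 without Aire+/+ replicate 2, and 9 and 2 without TG Aire-/- replicate 2. Calls of 9 members held in all 17 alternatives tried, namely lower Cyp2a5, Cyp2c29, Cyp2c50, Cyp2c70, Cyp2d13, Cyp2d40 and Cyp4f14 and higher Cyp4b1 and Cyp4f16.

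The second comparison, CD8-depleted against untreated TG Aire-/- liver, concerned mice of the same genotype. Members of the Cyp2a, Cyp2c, Cyp2d, Cyp3a and Cyp4f subfamilies were higher after depletion, led by Cyp2a5, Cyp2a4, Cyp2c29, Cyp2d40 and Cyp3a11, and Cyp2a22, Cyp4b1 and Cyp4f16 were lower. Of 49 members 26 were higher and 5 lower. Without the 3 members that reached the filter through 1 group 26 were higher and 3 lower of 46, against 4.49% and 33.5% of all genes tested (38% in either direction). The median log2 difference was 1.52 over the 49 members, 1.62 over the 46 and −0.58 over all genes. In 31 members both CD8-depleted libraries lay above both TG Aire-/- libraries (10.1% of all genes) and in 8 below (60.6%). The 8 include Cyp2s1 and Cyp4f18, and the counts under other settings below keep the 3 genes wherever they were tested. Median-of-ratios scaling gave 30 higher and 1 lower, quantile normalization 27 and 1, and the hepatocyte scaling 19 and 7, with median gene shifts of 0.06, 0.05 and −1.11. Under the hepatocyte scaling 8 of the higher members no longer passed (log2 0.61 to 1.11, adjusted p 0.0504 to 0.296). Without a filter 11 calls were lost (adjusted p 0.0547 to 0.117), those of Cyp2c40, Cyp2c54, Cyp2c67, Cyp2f2, Cyp2g1, Cyp2j5, Cyp2s1, Cyp3a25, Cyp3a44, Cyp4f15 and Cyp4f18. With sex as a covariate 16 rose and 2 fell, and without TG Aire-/- replicate 2, the female library of that group, 14 rose and 1 fell. The 13 calls lost with sex as a covariate (adjusted p 0.0532 to 0.143) were those of Cyp2c40, Cyp2c54, Cyp2c67, Cyp2d22, Cyp2f2, Cyp2g1, Cyp2j5, Cyp2s1, Cyp3a25, Cyp3a44, Cyp4f15, Cyp4f16 and Cyp4f18. Since the other TG Aire-/- library and both CD8-depleted libraries were male, the count without TG Aire-/- replicate 2 compares livers of the same sex. The fit with sex as a covariate used livers of both sexes. Calls of 12 members held in every alternative in which the gene was tested: higher Cyp2a4, Cyp2a5, Cyp2c23, Cyp2c29, Cyp2c39, Cyp2c50, Cyp2d10, Cyp2d40, Cyp2r1, Cyp3a11 and Cyp4f14 and lower Cyp4b1.

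The third comparison, CD8-depleted TG Aire-/- against Aire+/+ liver, asked how CD8-depleted liver differed from control liver. Cyp2a4 was higher and Cyp2a22 lower, and none of the other tested members passed the threshold. Without a filter neither passed (adjusted p = 0.107 and 0.109). Over all genes 0.548% passed, 0.221% higher and 0.327% lower. The median log2 difference was 0.09 over all tested members, 0.1 over the 46 and −0.04 over all genes. Unadjusted, 13 members had p under 0.05. This does not show that the remaining members were at control level. The CD8-depleted libraries differed widely from each other: without CD8-depleted replicate 1 the count was 1 higher and 4 lower, and without replicate 2 it was 0 higher and 1 lower.

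**Figure D2:**
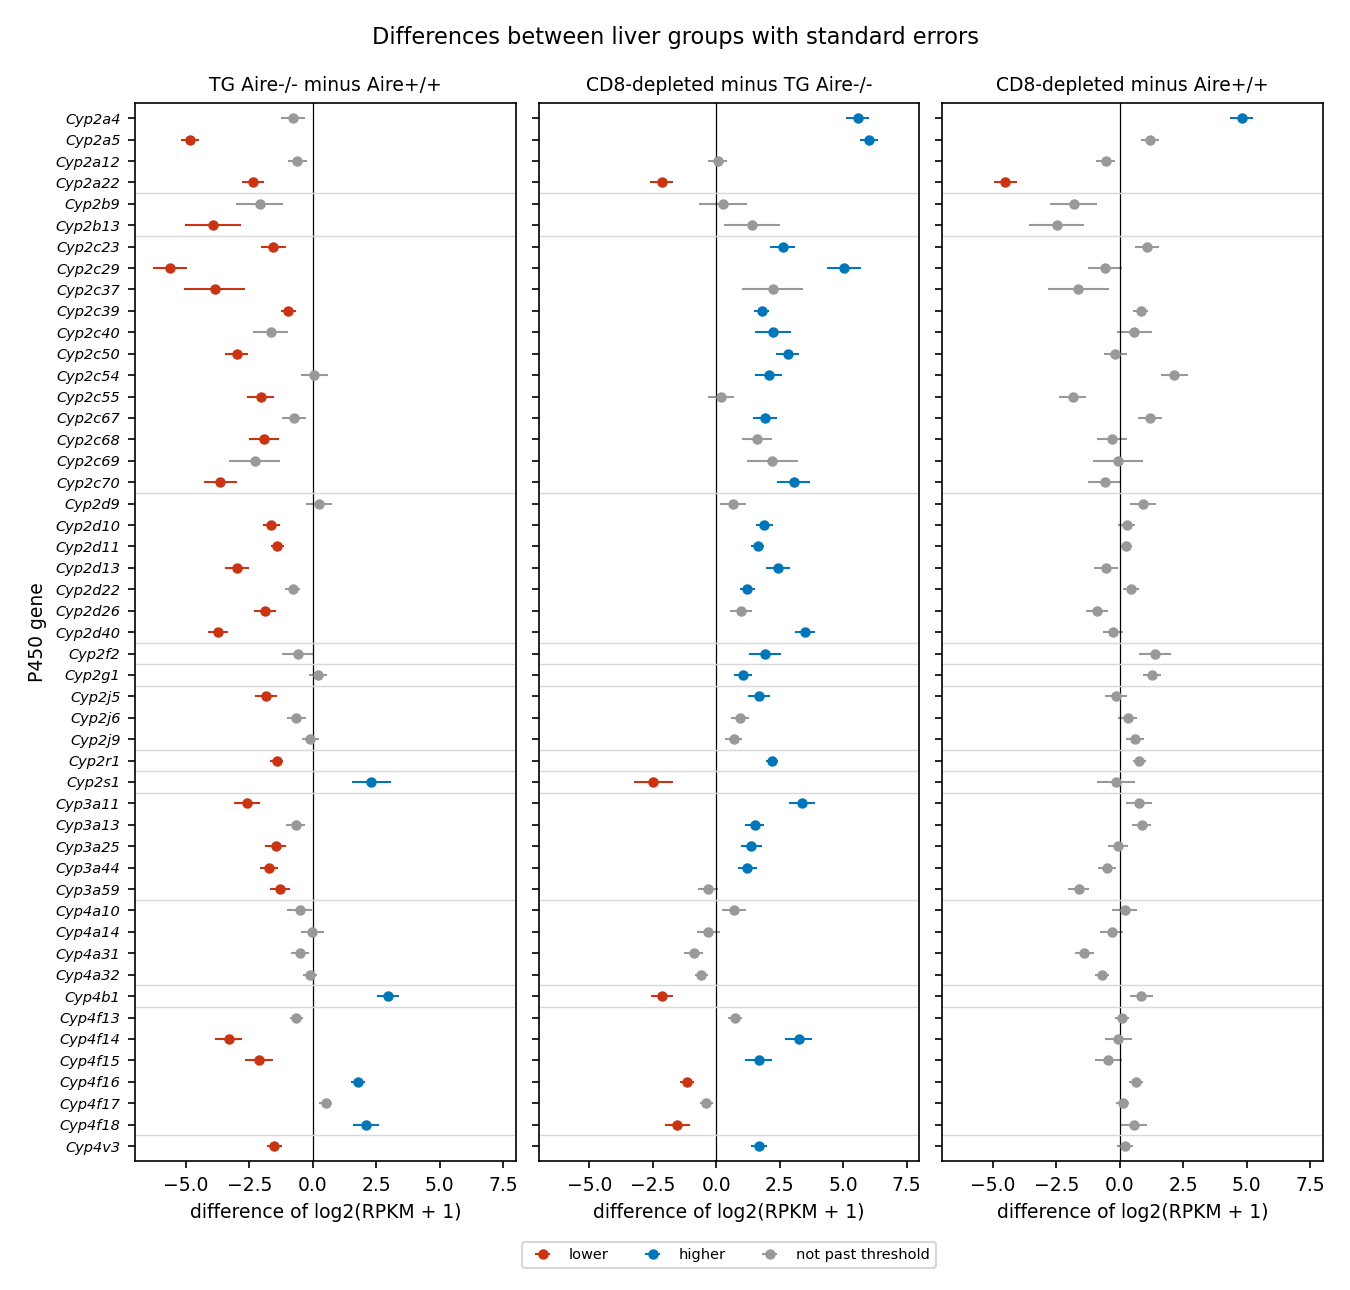
Difference of log2(RPKM + 1) for the 49 tested P450 genes (vertical axis, ordered by subfamily) in the 3 comparisons of liver groups; points are differences, bars are standard errors from limma, and colour marks adjusted p under 0.05. Most points lie left of 0 in the first panel and right of 0 in the second, and in the third the 2 coloured points are Cyp2a4 and Cyp2a22.

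The Cyp2a genes, which hydroxylate testosterone, coumarin and nicotine, gave both members that passed in CD8-depleted against Aire+/+ liver. Cyp2a5, the coumarin 7-hydroxylase of mouse liver, stood at 183 and 195 RPKM in Aire+/+ livers, 7.94 and 3.95 in TG Aire-/- livers and 512 and 359.9 in CD8-depleted livers. It was low in both TG Aire-/- livers and higher in both CD8-depleted livers than in any other. It fell in TG Aire-/- against Aire+/+ liver (log2 difference −4.84, SE 0.37, adjusted p = 0.00142) and rose after depletion (log2 difference 6.01, SE 0.37, adjusted p = 0.000559), to 2.31 times the Aire+/+ mean, a difference that did not pass (log2 difference 1.18, SE 0.37, adjusted p = 0.286). Cyp2a4, a testosterone 15α-hydroxylase, stood at 4.29 and 4.397 RPKM in Aire+/+ livers, 4.02 and 0.931 in TG Aire-/- livers and 184 and 117 in CD8-depleted livers. Only the CD8-depleted livers held it at a high level, without overlap with the other 4. TG Aire-/- liver did not differ from Aire+/+ liver beyond the threshold (log2 −0.78, adjusted p = 0.207). It rose against TG Aire-/- liver (log2 difference 5.57, SE 0.46, adjusted p = 0.00153) and was 34.7 times the Aire+/+ mean (log2 difference 4.79, SE 0.46, adjusted p = 0.00889), a call that was lost without CD8-depleted replicate 2 (log2 5.12, adjusted p = 0.0512).

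Cyp2a22 moved the other way within the subfamily. It stood at 171 and 146 RPKM in Aire+/+ livers, 37.7 and 24.1 in TG Aire-/- livers and 9.93 and 3.48 in CD8-depleted livers. Its levels fell from group to group without overlap: TG Aire-/- liver was below Aire+/+ liver (log2 difference −2.35, SE 0.45, adjusted p = 0.00758), and CD8-depleted liver was lower again (log2 difference −2.15, SE 0.45, adjusted p = 0.0106), 23.7-fold below Aire+/+ (log2 difference −4.51, SE 0.45, adjusted p = 0.0101). Without TG Aire-/- replicate 1 or 2 the last adjusted p was 0.0615 or 0.0607 and that of the second comparison 0.0560 or 0.0509, and without TG Aire-/- replicate 2 that of the first was 0.0731. The fall of Cyp2a22 after depletion did not pass under median-of-ratios (log2 −1.42, adjusted p = 0.0992) or quantile scaling (log2 −1.67, adjusted p = 0.0614). With only the 2 groups compared in the fit, its difference from Aire+/+ liver did not pass either (adjusted p = 0.0585). Cyp2a12, a testosterone 7α-hydroxylase, was the most abundant of the 4 in Aire+/+ and TG Aire-/- livers and came after Cyp2a5 in CD8-depleted livers. It stood at 430.2 and 439.5 RPKM in Aire+/+ livers, 376 and 216 in TG Aire-/- livers and 261 and 335 in CD8-depleted livers. It passed the threshold in none of the 3 comparisons (adjusted p = 0.232, 0.919 and 0.674), and its CD8-depleted values lay between those of the TG Aire-/- libraries. As a whole the subfamily held 789 and 785, 425 and 245, and 967 and 816 RPKM in the 3 groups, so that after depletion a sum near the control level held a different mix of the 4 genes.

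Reads of such relatives can be hard to assign. The coding sequences of Cyp2a4 and Cyp2a5 were 98.5% identical and those of Cyp2a12 and Cyp2a22 96.95%. In all, 19 members shared at least 95% with another P450 gene, in 17 pairs. Identity was counted over the longer coding sequence of a pair, and by that measure Cyp2c40 and Cyp4f16 fell below 95%. Over aligned bases alone, Cyp2c40 matched Cyp2c68 at 1445 of 1473 and Cyp4f16 matched Cyp4f37 at 1505 of 1572. How the authors' counting treated reads that match several genes is not given in the sources used here. Values of the 19 members and of Cyp2c40 and Cyp4f16 are uncertain as single genes. The promoters of the pairs were also alike, which is why they are shown here. Over the 250 bases before the RefSeq start (GRCm38.p6), Cyp2a4 and Cyp2a5 shared 245 bases, Cyp2a12 and Cyp2a22 216, and Cyp2a5 and Cyp2a12 133. The last 120 bases before the start of each gene are printed 5′ to 3′ on the gene's strand, with capitals for TATAAA (the TATA box, searched on that strand in the last 50 bases) and for CAAAGTCC (the core of an HNF4α element, searched on both strands in the 250 bases).
Cyp2a4: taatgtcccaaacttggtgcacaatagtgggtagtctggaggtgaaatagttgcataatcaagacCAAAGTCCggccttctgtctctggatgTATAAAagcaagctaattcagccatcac
Cyp2a5: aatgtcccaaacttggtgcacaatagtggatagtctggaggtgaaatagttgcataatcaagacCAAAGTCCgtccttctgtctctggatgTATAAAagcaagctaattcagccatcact
Cyp2a12: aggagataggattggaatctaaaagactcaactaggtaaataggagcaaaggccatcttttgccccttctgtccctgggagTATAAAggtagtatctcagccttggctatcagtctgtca
Cyp2a22: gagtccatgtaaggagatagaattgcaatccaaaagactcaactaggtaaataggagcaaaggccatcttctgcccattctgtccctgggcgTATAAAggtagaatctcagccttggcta
Cyp2a4 and Cyp2a5 carried both elements at the same distance from each other, and Cyp2a12 and Cyp2a22 carried TATAAA alone in this stretch. The shown windows lie on chromosome 7 at chr7:26307072-26307191, chr7:26835219-26835338, chr7:27028970-27029089 on the plus strand and chr7:26939387-26939506 on the minus strand, in the order printed. Sequences for 59 of the 72 members were in the table. TATAAA was found in 15.2% of their 66 promoters and in 2.63% of all 32851, and CAAAGTCC in 16.7% and 1.2%. Both motifs were chosen after the sequences had been read, and a match describes the letters only. Almost the same 250 bases thus preceded Cyp2a5, at 183 and 195 RPKM in Aire+/+ liver, and Cyp2a4, at 4.29 and 4.397.

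**Figure D3:**
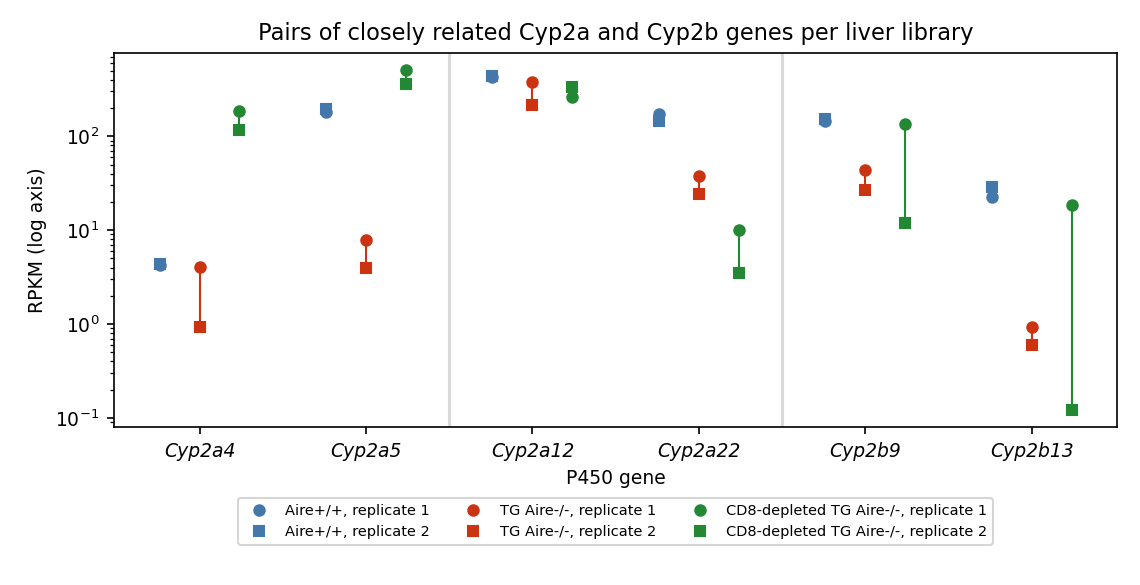
RPKM (vertical log axis) of 3 pairs of closely related P450 genes in the 6 liver libraries; circles are replicate 1, squares replicate 2, and a line joins the libraries of a group. Cyp2a4 and Cyp2a5 are highest and Cyp2a22 lowest in the CD8-depleted livers, and the CD8-depleted libraries stand far apart for Cyp2b9 and Cyp2b13.

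The Cyp2b genes encode inducible enzymes, and Cyp2b9 and Cyp2b13 are known as female-predominant in adult liver. Cyp2b9 stood at 145 and 152 RPKM in Aire+/+ livers, 43.6 and 26.5 in TG Aire-/- livers and 136 and 11.97 in CD8-depleted livers. The Aire+/+ and TG Aire-/- groups did not overlap, but the 3 groups shared 1 estimate of the spread, and the difference did not pass (log2 difference −2.10, SE 0.93, adjusted p = 0.112); without CD8-depleted replicate 1 or 2 its adjusted p was 0.00496 or 0.00505. Cyp2b13 stood at 22.5 and 28.8 RPKM in Aire+/+ livers, 0.921 and 0.603 in TG Aire-/- livers and 18.7 and 0.122 in CD8-depleted livers. It was lower in TG Aire-/- liver (log2 difference −3.92, SE 1.10, adjusted p = 0.02896), but it had reached the filter only through the Aire+/+ libraries, so that this difference is a description, and it missed the threshold without a filter (adjusted p = 0.0915) and when any Aire+/+ or TG Aire-/- library was left out (adjusted p 0.0680 to 0.161). CD8-depleted replicate 1 held both genes near the Aire+/+ level and replicate 2 held both below the TG Aire-/- libraries. Neither gene passed after depletion, and 0 of the 2 had an unadjusted p under 0.05 in limma. Without replicate 2 both rose (log2 1.97, adjusted p = 0.0119 for Cyp2b9, and 3.49, adjusted p = 0.00372 for Cyp2b13). Without replicate 1 Cyp2b9 was lower than in Aire+/+ liver (log2 −3.53, adjusted p = 0.0182). Their coding sequences were 92.7% identical, and the 250 bases before their starts 99.2%, with the last 120 the same in both.
Cyp2b9: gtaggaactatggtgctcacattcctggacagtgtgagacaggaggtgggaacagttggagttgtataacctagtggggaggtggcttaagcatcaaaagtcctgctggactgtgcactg
Cyp2b13: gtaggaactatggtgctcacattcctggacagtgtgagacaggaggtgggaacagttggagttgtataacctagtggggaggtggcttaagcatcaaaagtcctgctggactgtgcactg
These windows, at chr7:26173289-26173408 and chr7:26061375-26061494 on the plus strand, held neither motif. The Aire+/+ livers, which were of opposite sex, gave similar levels of both genes, and both CD8-depleted libraries were male.

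The Cyp2c genes, whose enzymes epoxidise arachidonic acid and oxidise drugs, steroids and bile acids, were the largest subfamily and, of all 20, had the largest fold by which the summed level was lower in TG Aire-/- than in Aire+/+ livers, 6.37. Of 12 tested members 8 fell in TG Aire-/- liver and 8 rose after depletion, and against Aire+/+ liver 0 passed in limma with 4 at an unadjusted p under 0.05. Cyp2c29, an abundant CAR-responsive member, stood at 511 and 526 RPKM in Aire+/+ livers, 19.2 and 4.45 in TG Aire-/- livers and 555 and 212 in CD8-depleted livers. It had the largest fall of all members (log2 difference −5.63, SE 0.66, adjusted p = 0.00217), and both TG Aire-/- values were far below the other 4. After depletion it rose (log2 difference 5.04, SE 0.66, adjusted p = 0.00263), although CD8-depleted replicate 2 stayed below the Aire+/+ libraries. The 120 bases before its start, shown as those of the member with the largest fall, held TATAAA and lie at chr19:39286965-39287084 on the plus strand.
Cyp2c29: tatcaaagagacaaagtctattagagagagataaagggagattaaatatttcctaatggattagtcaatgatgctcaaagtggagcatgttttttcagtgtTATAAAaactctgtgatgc

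Cyp2c70, the enzyme that makes muricholic acids, the bile acids typical of mice, stood at 404 and 529 RPKM in Aire+/+ livers, 78.8 and 16.3 in TG Aire-/- livers and 285 and 326 in CD8-depleted livers. It fell (log2 difference −3.64, SE 0.65, adjusted p = 0.00614) and rose after depletion (log2 difference 3.04, SE 0.65, adjusted p = 0.0114), with both CD8-depleted values between those of the other groups. The arachidonic acid epoxygenase Cyp2c50 stood at 248 and 248 RPKM in Aire+/+ livers, 47.7 and 19.02 in TG Aire-/- livers and 262 and 182 in CD8-depleted livers. It fell (log2 −2.99, adjusted p = 0.00375) and rose (log2 2.81, adjusted p = 0.00472) without overlap, back to values that spanned the Aire+/+ ones. Its near-identical neighbour Cyp2c37 stood at 547 and 502 RPKM in Aire+/+ livers, 66.5 and 18.4 in TG Aire-/- livers and 709.5 and 39.3 in CD8-depleted livers. It fell in TG Aire-/- liver (log2 −3.86, adjusted p = 0.0399), a call lost when any Aire+/+ or TG Aire-/- library was left out (adjusted p 0.0686 to 0.248). After depletion only replicate 1 was high (log2 2.22, adjusted p = 0.175), and without replicate 2 the rise passed (log2 4.29, adjusted p = 0.00858). Cyp2c54, 95.1% identical to Cyp2c37 in its coding sequence, stood at 38.3 and 26.3 RPKM in Aire+/+ livers, 47.1 and 23.6 in TG Aire-/- livers and 234 and 87.4 in CD8-depleted livers. It did not follow the others, with no difference that passed in TG Aire-/- liver (log2 0.07, adjusted p = 0.927), yet it rose after depletion (log2 2.07, adjusted p = 0.0208). The rise of Cyp2c70 in the second comparison did not pass without CD8-depleted replicate 1 (adjusted p = 0.05205). The rise of Cyp2c54 in the second comparison did not pass without TG Aire-/- replicate 2 or CD8-depleted replicate 1 (adjusted p = 0.142 and 0.0904).

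Cyp2c23, an arachidonic acid epoxygenase that lies apart from the rest of the cluster, stood at 41.9 and 40.98 RPKM in Aire+/+ livers, 23.9 and 7.47 in TG Aire-/- livers and 74.2 and 104 in CD8-depleted livers. It fell (log2 −1.55, adjusted p = 0.0413) and rose (log2 2.61, adjusted p = 0.00762), and both CD8-depleted livers were above all others. Cyp2c39, a retinoic acid hydroxylase, was a low member, at 1.5 and 1.31 RPKM in Aire+/+ livers, 0.161 and 0.306 in TG Aire-/- livers and 4.62 and 2.23 in CD8-depleted livers. It fell (log2 −0.96, adjusted p = 0.0384) and rose (log2 1.79, adjusted p = 0.00528) without overlap between any 2 groups. Cyp2c40, which hydroxylates arachidonic acid, stood at 91.3 and 84.7 RPKM in Aire+/+ livers, 63.1 and 11.4 in TG Aire-/- livers and 175 and 98.3 in CD8-depleted livers. Its lower level did not pass (log2 −1.66, adjusted p = 0.09705) and its rise did (log2 2.23, adjusted p = 0.0401). Cyp2c67 stood at 30.2 and 31.2 RPKM in Aire+/+ livers, 26.8 and 12.1 in TG Aire-/- livers and 47.9 and 103 in CD8-depleted livers. It too passed after depletion alone (log2 −0.73, adjusted p = 0.241 and log2 1.91, adjusted p = 0.0184), and CD8-depleted replicate 2 was the highest library. Its near-identical relatives Cyp2c68 and Cyp2c69 were at 331 and 332 and at 78.0 and 80.2 RPKM in Aire+/+ livers and lower in both TG Aire-/- livers. The difference passed for Cyp2c68 (log2 −1.93, adjusted p = 0.0367) and not for Cyp2c69 (log2 −2.28, adjusted p = 0.106), whose TG Aire-/- libraries were far apart. Cyp2c55, a member better known from colon, was low at 5.42 and 9.69 RPKM in Aire+/+ livers, 1.57 and 0.558 in TG Aire-/- livers and 0.3395 and 2.87 in CD8-depleted livers. It fell (log2 −2.05, adjusted p = 0.0215) and its difference after depletion did not pass (log2 0.19, adjusted p = 0.791). Several of these calls rested on single libraries. The fall of Cyp2c23 in the first comparison did not pass without either Aire+/+ library, TG Aire-/- replicate 2 or either CD8-depleted library (adjusted p 0.0506 to 0.168) or under the hepatocyte scaling (log2 −0.56, adjusted p = 0.242). The fall of Cyp2c39 in the first comparison did not pass without either Aire+/+ library or either TG Aire-/- library (adjusted p 0.123 to 0.181) or under the hepatocyte scaling (log2 −0.55, adjusted p = 0.235). The fall of Cyp2c68 in the first comparison did not pass without either Aire+/+ library or TG Aire-/- replicate 2 (adjusted p 0.129 to 0.1904) or under the hepatocyte scaling (log2 −0.89, adjusted p = 0.0747). The fall of Cyp2c55 in the first comparison did not pass without Aire+/+ replicate 2 or TG Aire-/- replicate 2 (adjusted p = 0.102 and 0.149). The rise of Cyp2c40 in the second comparison did not pass without TG Aire-/- replicate 2 or either CD8-depleted library (adjusted p 0.0588 to 0.181). The rise of Cyp2c67 in the second comparison did not pass without TG Aire-/- replicate 2 or CD8-depleted replicate 2 (adjusted p = 0.118 and 0.0629).

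The Cyp2d genes, relatives of the human drug-oxidising enzyme CYP2D6, fell in 5 of 7 tested members and rose after depletion in 5. Cyp2d26, the most abundant in Aire+/+ and TG Aire-/- livers, stood at 601 and 555 RPKM in Aire+/+ livers, 198 and 123 in TG Aire-/- livers and 417 and 227 in CD8-depleted livers. It fell (log2 difference −1.88, SE 0.42, adjusted p = 0.0131) and its later difference did not pass (log2 difference 0.97, SE 0.42, adjusted p = 0.101), although both CD8-depleted libraries lay above both TG Aire-/- libraries. Cyp2d10 stood at 353 and 318 RPKM in Aire+/+ livers, 131 and 88.4 in TG Aire-/- livers and 375 and 430.0 in CD8-depleted livers. It fell (log2 −1.63, adjusted p = 0.00963) and rose (log2 1.89, adjusted p = 0.00645), to values above those of Aire+/+ liver. Cyp2d40 stood at 26.1 and 26.5 RPKM in Aire+/+ livers, 2.05 and 0.374 in TG Aire-/- livers and 18.9 and 25.2 in CD8-depleted livers. This member fell most within the subfamily, 21.7-fold (log2 −3.74, adjusted p = 0.00207), and rose 18.2-fold (log2 3.48, adjusted p = 0.00211). Cyp2d13, the pseudogene, stood at 44.2 and 42.5 RPKM in Aire+/+ livers, 7.57 and 2.598 in TG Aire-/- livers and 20.5 and 40.9 in CD8-depleted livers. Its transcript fell (log2 −3.00, adjusted p = 0.00432) and rose (log2 2.43, adjusted p = 0.00868) in the same direction as the coding members that passed. The fall of Cyp2d26 in the first comparison did not pass without either Aire+/+ library or TG Aire-/- replicate 2 (adjusted p 0.0746 to 0.0899) or under the hepatocyte scaling (log2 −0.84, adjusted p = 0.0725). The fall of Cyp2d10 in the first comparison did not pass without either Aire+/+ library or TG Aire-/- replicate 2 (adjusted p 0.0574 to 0.0987) or under the hepatocyte scaling (log2 −0.59, adjusted p = 0.168). The rise of Cyp2d13 in the second comparison did not pass without TG Aire-/- replicate 2 (adjusted p = 0.05904). Without CD8-depleted replicate 2 the rise of Cyp2d26 passed (log2 1.41, adjusted p = 0.0344).

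Cyp2d11 stood at 17.2 and 16.5 RPKM in Aire+/+ livers, 6.41 and 5.24 in TG Aire-/- livers and 20.6 and 19.4 in CD8-depleted livers. It fell (log2 −1.39, adjusted p = 0.00604) and rose (log2 1.62, adjusted p = 0.00396) with little spread inside the groups. The fall of Cyp2d11 in the first comparison did not pass without either Aire+/+ library (adjusted p = 0.0691 and 0.0598) or under the hepatocyte scaling (log2 −0.45, adjusted p = 0.381). Its rise missed the threshold under that scaling (log2 1.07, adjusted p = 0.0608). Cyp2d22, held to be the closest mouse counterpart of CYP2D6, stood at 47.8 and 43.03 RPKM in Aire+/+ livers, 27.2 and 24.5 in TG Aire-/- livers and 77.7 and 49.3 in CD8-depleted livers. Its lower level did not pass (log2 −0.79, adjusted p = 0.0762; adjusted p = 0.0347 and 0.0349 without CD8-depleted replicate 1 and 2), and its rise did (log2 1.23, adjusted p = 0.0187). The rise of Cyp2d22 in the second comparison did not pass without TG Aire-/- replicate 2 or CD8-depleted replicate 1 (adjusted p = 0.0935 and 0.0655) or under the hepatocyte scaling (log2 0.62, adjusted p = 0.213). Cyp2d9, a testosterone 16α-hydroxylase known as male-predominant in adult liver, was not lower in TG Aire-/- liver. It stood at 63.2 and 55.3 RPKM in Aire+/+ livers, 82.9 and 59.8 in TG Aire-/- livers and 62.7 and 195 in CD8-depleted livers, with no difference that passed (log2 0.25, adjusted p = 0.717 and log2 0.64, adjusted p = 0.336). CD8-depleted replicate 2 stood above the other 5 libraries, and with that library alone as the group the second difference passed (log2 1.45, adjusted p = 0.0352).

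Among the small Cyp2 subfamilies Cyp2r1, a vitamin D 25-hydroxylase, stood at 2.99 and 3.999 RPKM in Aire+/+ livers, 0.623 and 0.719 in TG Aire-/- livers and 6.94 and 6.26 in CD8-depleted livers. It fell (log2 difference −1.42, SE 0.25, adjusted p = 0.00575) and rose 9.83-fold after depletion (log2 difference 2.18, SE 0.25, adjusted p = 0.00211), without overlap between any 2 groups. Without Aire+/+ replicate 2 the adjusted p of its fall was 0.0694, and under the hepatocyte scaling 0.163 (log2 −0.79). Cyp2j5, an arachidonic acid epoxygenase of liver and kidney, stood at 52.3 and 63.8 RPKM in Aire+/+ livers, 20.3 and 11.5 in TG Aire-/- livers and 34.8 and 76.3 in CD8-depleted livers. It fell (log2 −1.85, adjusted p = 0.0158) and rose (log2 1.69, adjusted p = 0.0212), while Cyp2j6 and Cyp2j9, at 5.56 to 19.4 and 0.873 to 3 RPKM over the 6 livers, passed in no comparison. Without CD8-depleted replicate 1 the rise of Cyp2j6 passed (log2 1.42, adjusted p = 0.0332). Cyp2f2, known from the lung's club cells and from periportal hepatocytes, stood at 94.5 and 111 RPKM in Aire+/+ livers, 145 and 32.5 in TG Aire-/- livers and 223 and 320.4 in CD8-depleted livers. The TG Aire-/- libraries lay on both sides of the Aire+/+ ones (log2 −0.56, adjusted p = 0.497), and it rose after depletion (log2 1.94, adjusted p = 0.0456). Cyp2g1, a gene of the olfactory lining, stood at 1.71 and 1.86 RPKM in Aire+/+ livers, 3.52 and 1.32 in TG Aire-/- livers and 6.39 and 5.02 in CD8-depleted livers. It rose after depletion (log2 1.04, adjusted p = 0.0485), close to the threshold, and the call held in 5 of 17 alternatives. The fall of Cyp2j5 in the first comparison did not pass without either Aire+/+ library or TG Aire-/- replicate 2 (adjusted p 0.0582 to 0.116) or under the hepatocyte scaling (log2 −0.85, adjusted p = 0.0963). The rise of Cyp2j5 in the second comparison did not pass without TG Aire-/- replicate 2 or CD8-depleted replicate 2 (adjusted p = 0.136 and 0.0636). The rise of Cyp2f2 in the second comparison did not pass without either Aire+/+ library, TG Aire-/- replicate 2 or either CD8-depleted library (adjusted p 0.0588 to 0.157). The rise of Cyp2g1 in the second comparison did not pass without either Aire+/+ library, TG Aire-/- replicate 2 or either CD8-depleted library (adjusted p 0.0711 to 0.175) or under the hepatocyte scaling (log2 0.61, adjusted p = 0.296).

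Cyp2s1, an enzyme known mostly from epithelia outside the liver, was higher in TG Aire-/- liver than in any other group. It stood at 0.195 and 0.199 RPKM in Aire+/+ livers, 1.24 and 14.9 in TG Aire-/- livers and 0.1202 and 0.0186 in CD8-depleted livers. TG Aire-/- replicate 2 held nearly all of the signal, and the value of CD8-depleted replicate 2 was below the floor given above. The gene reached the filter only through the TG Aire-/- libraries, so its differences, 2.31 on the log2(RPKM + 1) scale against Aire+/+ liver and −2.48 after depletion, are given as a description. Without a filter neither passed (adjusted p = 0.123 and 0.106). Summed cholangiocyte markers, 6 epithelial genes of the bile duct, stood at 24.6 and 37.1, 51.3 and 99.0, and 19.6 and 100.5 RPKM in the same libraries. Spp1 led this sum in every library (18.04 to 94.32 RPKM), so the sums mainly follow Spp1. Krt19, Krt7 and Sox9 were highest in TG Aire-/- replicate 2 (20.29, 2.038 and 3.529 RPKM). Epcam, Cftr and Spp1 were highest in CD8-depleted replicate 2 (2.669, 0.2995 and 94.32 RPKM). The part of these markers in the Cyp2s1 values was not tested.

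The Cyp3a genes, the chief drug-oxidising subfamily, fell in 4 of 5 tested members and rose after depletion in 4. Cyp3a11, a PXR target and the main counterpart of human CYP3A4, stood at 1037 and 1492 RPKM in Aire+/+ livers, 279 and 152 in TG Aire-/- livers and 1479 and 3045 in CD8-depleted livers. It fell 5.88-fold (log2 difference −2.59, SE 0.51, adjusted p = 0.00859) and rose 10.5-fold after depletion (log2 difference 3.36, SE 0.51, adjusted p = 0.00406). The fall did not pass without Aire+/+ replicate 2 (log2 −2.33, adjusted p = 0.0716) or TG Aire-/- replicate 2 (log2 −2.15, adjusted p = 0.0646). The CD8-depleted value of replicate 2 was 2.06 times that of replicate 1. In the same library Cyp3a41a and Cyp3a41b, no members of the set by the symbol rule but 95.17% and 95.04% identical to Cyp3a11 in coding sequence, stood at 589 and 571 RPKM against 67.3 and 61.6 in replicate 1. How reads were split among the 3 was not tested. The 120 bases before the Cyp3a11 start, shown as those of the member with the highest level in Aire+/+ and CD8-depleted livers, held CAAAGTCC and lie at chr5:145879855-145879974 on the minus strand.
Cyp3a11: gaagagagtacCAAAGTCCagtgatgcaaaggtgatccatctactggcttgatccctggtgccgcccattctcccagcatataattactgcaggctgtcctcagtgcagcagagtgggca

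Cyp3a25 stood at 161 and 193 RPKM in Aire+/+ livers, 74.9 and 53.7 in TG Aire-/- livers and 237 and 118 in CD8-depleted livers. It fell (log2 −1.46, adjusted p = 0.0265) and rose (log2 1.39, adjusted p = 0.0305). Its near-identical copy Cyp3a59, 97.5% identical, stood at 52.6 and 67.8 RPKM in Aire+/+ livers, 23.5 and 24.2 in TG Aire-/- livers and 29.04 and 11.96 in CD8-depleted livers. Cyp3a59 fell (log2 −1.29, adjusted p = 0.0418), and its difference after depletion did not pass (log2 −0.33, adjusted p = 0.535). Whether the copies differed in their response was not tested. Cyp3a44, known as female-predominant and 95.8% identical to Cyp3a41a, stood at 32.2 and 48.8 RPKM in Aire+/+ livers, 12.6 and 10.03 in TG Aire-/- livers and 20.8 and 36.6 in CD8-depleted livers. It fell (log2 −1.73, adjusted p = 0.01002) and rose (log2 1.23, adjusted p = 0.0318). Cyp3a13, a member also made in gut, stood at 53.4 and 71.1 RPKM in Aire+/+ livers, 35.1 and 42.2 in TG Aire-/- livers and 157 and 79.9 in CD8-depleted livers. Its lower level did not pass (log2 −0.67, adjusted p = 0.194) and its rise did (log2 1.52, adjusted p = 0.0192). Most calls in this subfamily rested on single libraries. The fall of Cyp3a25 in the first comparison did not pass without either Aire+/+ library or TG Aire-/- replicate 2 (adjusted p 0.105 to 0.1598) or under the hepatocyte scaling (log2 −0.43, adjusted p = 0.357). The fall of Cyp3a59 in the first comparison did not pass without either Aire+/+ library or either TG Aire-/- library (adjusted p 0.115 to 0.212) or under the hepatocyte scaling (log2 −0.27, adjusted p = 0.607). The fall of Cyp3a44 in the first comparison did not pass without Aire+/+ replicate 2 or TG Aire-/- replicate 2 (adjusted p = 0.0846 and 0.0792) or under the hepatocyte scaling (log2 −0.74, adjusted p = 0.152). The rise of Cyp3a25 in the second comparison did not pass without either Aire+/+ library, either TG Aire-/- library or CD8-depleted replicate 1 (adjusted p 0.0549 to 0.159) or under the hepatocyte scaling (log2 0.77, adjusted p = 0.126). The rise of Cyp3a44 in the second comparison did not pass without either Aire+/+ library, either TG Aire-/- library or CD8-depleted replicate 2 (adjusted p 0.0526 to 0.155) or under the hepatocyte scaling (log2 0.64, adjusted p = 0.232). The rise of Cyp3a13 in the second comparison did not pass without either TG Aire-/- library or CD8-depleted replicate 1 (adjusted p 0.0673 to 0.0808) or under the hepatocyte scaling (log2 0.90, adjusted p = 0.102). Without CD8-depleted replicate 1 Cyp3a59 was lower than in Aire+/+ liver (log2 −2.23, adjusted p = 0.0320).

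The Cyp4a genes, fatty acid ω-hydroxylases and targets of PPARα, were an exception among the abundant subfamilies, as was Cyp2f2 (1.16-fold between the Aire+/+ and TG Aire-/- means). In limma 0 of the 4 tested Cyp4a members passed in TG Aire-/- against Aire+/+ liver, 0 had an unadjusted p under 0.05, and none passed under any alternative. Cyp4a14 stood at 228 and 192 RPKM in Aire+/+ livers, 188 and 226 in TG Aire-/- livers and 262 and 106 in CD8-depleted livers, and the first 4 of these values overlapped (log2 difference −0.02, SE 0.45, adjusted p = 0.974). Cyp4a10 stood at 192 and 142 RPKM in Aire+/+ livers, 111 and 119 in TG Aire-/- livers and 307 and 114 in CD8-depleted livers (log2 difference −0.52, SE 0.47, adjusted p = 0.405). Cyp4a31 and Cyp4a32, near-identical copies of Cyp4a10, differed by −0.51 and −0.11 on the log2 scale. Standard errors of 0.27 to 0.47 do not allow these levels to be called equal, and the summed Cyp4a level was lower in both TG Aire-/- libraries than in both Aire+/+ libraries. Cyp4a made up 7.51% and 5.97% of the summed P450 RPKM in Aire+/+ livers, 14.3% and 25.4% in TG Aire-/- livers, and 7.71% and 3.33% in CD8-depleted livers. After depletion 0 of the 4 passed in limma and 1 had an unadjusted p under 0.05. Cyp4a10 rose without CD8-depleted replicate 2 (log2 1.41, adjusted p = 0.0209), and Cyp4a31 fell without replicate 1 (log2 −1.35, adjusted p = 0.0373) and under the hepatocyte scaling.

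The Cyp4f genes, which hydroxylate leukotriene B4 and other long-chain lipids, split. Cyp4f14, a leukotriene and vitamin E ω-hydroxylase of liver, stood at 59.5 and 58.5 RPKM in Aire+/+ livers, 10.2 and 2.27 in TG Aire-/- livers and 46.8 and 68.4 in CD8-depleted livers. It fell (log2 difference −3.31, SE 0.54, adjusted p = 0.00476) and rose after depletion (log2 difference 3.25, SE 0.54, adjusted p = 0.00534). Cyp4f15 stood at 48.2 and 42.6 RPKM in Aire+/+ livers, 19.3 and 4.59 in TG Aire-/- livers and 31.1 and 34.8 in CD8-depleted livers. It too fell (log2 −2.12, adjusted p = 0.0212) and rose (log2 1.67, adjusted p = 0.04501). Cyp4f18, the leukotriene B4 ω-hydroxylase of neutrophils, was highest in the TG Aire-/- libraries, at 0.432 and 0.692 RPKM in Aire+/+ livers, 3.58 and 8.64 in TG Aire-/- livers and 0.429 and 2.68 in CD8-depleted livers. It too reached the filter through that group alone, with 1 other library at 1 RPKM or more, and its differences, 2.09 and −1.53 on the log2 scale, are a description. Without a filter neither passed (adjusted p = 0.0611 and 0.117). Cyp4f16 stood at 2.86 and 2.18 RPKM in Aire+/+ livers, 9.28 and 13.1 in TG Aire-/- livers and 4.42 and 4.502 in CD8-depleted livers. It rose (log2 1.78, adjusted p = 0.00394) and fell (log2 −1.14, adjusted p = 0.0167) with no overlap between groups. Its fall did not pass under median-of-ratios (adjusted p = 0.210) or quantile scaling (adjusted p = 0.151) or with sex as a covariate (adjusted p = 0.0531). The fall of Cyp4f15 in the first comparison did not pass without either Aire+/+ library or TG Aire-/- replicate 2 (adjusted p 0.0542 to 0.0859). The rise of Cyp4f15 in the second comparison did not pass without either Aire+/+ library, TG Aire-/- replicate 2 or either CD8-depleted library (adjusted p 0.05805 to 0.128) or under the hepatocyte scaling (log2 1.11, adjusted p = 0.0523). The fall of Cyp4f16 in the second comparison did not pass without TG Aire-/- replicate 2 or CD8-depleted replicate 1 (adjusted p = 0.0693 and 0.0593). The leukocyte sums given above were also highest in the TG Aire-/- libraries, where Cd74 led them. The part of leukocytes in the Cyp4f18 and Cyp4f16 values was not tested. Cyp4f13 and Cyp4f17, at 9.26 to 19.3 and 1.65 to 3.31 RPKM over the 6 livers, passed in no comparison.

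Cyp4b1, an enzyme best known from lung, where it activates the toxin 4-ipomeanol, had the largest rise on the log2(RPKM + 1) scale. By the ratio of mean RPKM the difference of Cyp2s1, 40.9-fold, was larger. Cyp4b1 stood at 1.62 and 0.929 RPKM in Aire+/+ livers, 10.2 and 27.1 in TG Aire-/- livers and 3.48 and 2.65 in CD8-depleted livers. Both TG Aire-/- libraries exceeded the other 4, and the gene rose 14.6-fold (log2 difference 2.98, SE 0.44, adjusted p = 0.00351) and fell after depletion (log2 difference −2.13, SE 0.44, adjusted p = 0.0102). Both calls held in all 17 alternatives. Cyp4v3, the counterpart of the human eye disease gene CYP4V2, stood at 64.1 and 68.1 RPKM in Aire+/+ livers, 20.6 and 24.9 in TG Aire-/- livers and 59.5 and 95.5 in CD8-depleted livers. It fell (log2 −1.50, adjusted p = 0.0103) and rose (log2 1.69, adjusted p = 0.00747), and its CD8-depleted values lay on both sides of the Aire+/+ ones. The fall of Cyp4v3 in the first comparison did not pass without either Aire+/+ library or TG Aire-/- replicate 2 (adjusted p 0.0527 to 0.0822) or under the hepatocyte scaling (log2 −0.49, adjusted p = 0.323). Its rise missed the threshold under that scaling (log2 1.08, adjusted p = 0.0504).

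**Figure D4:**
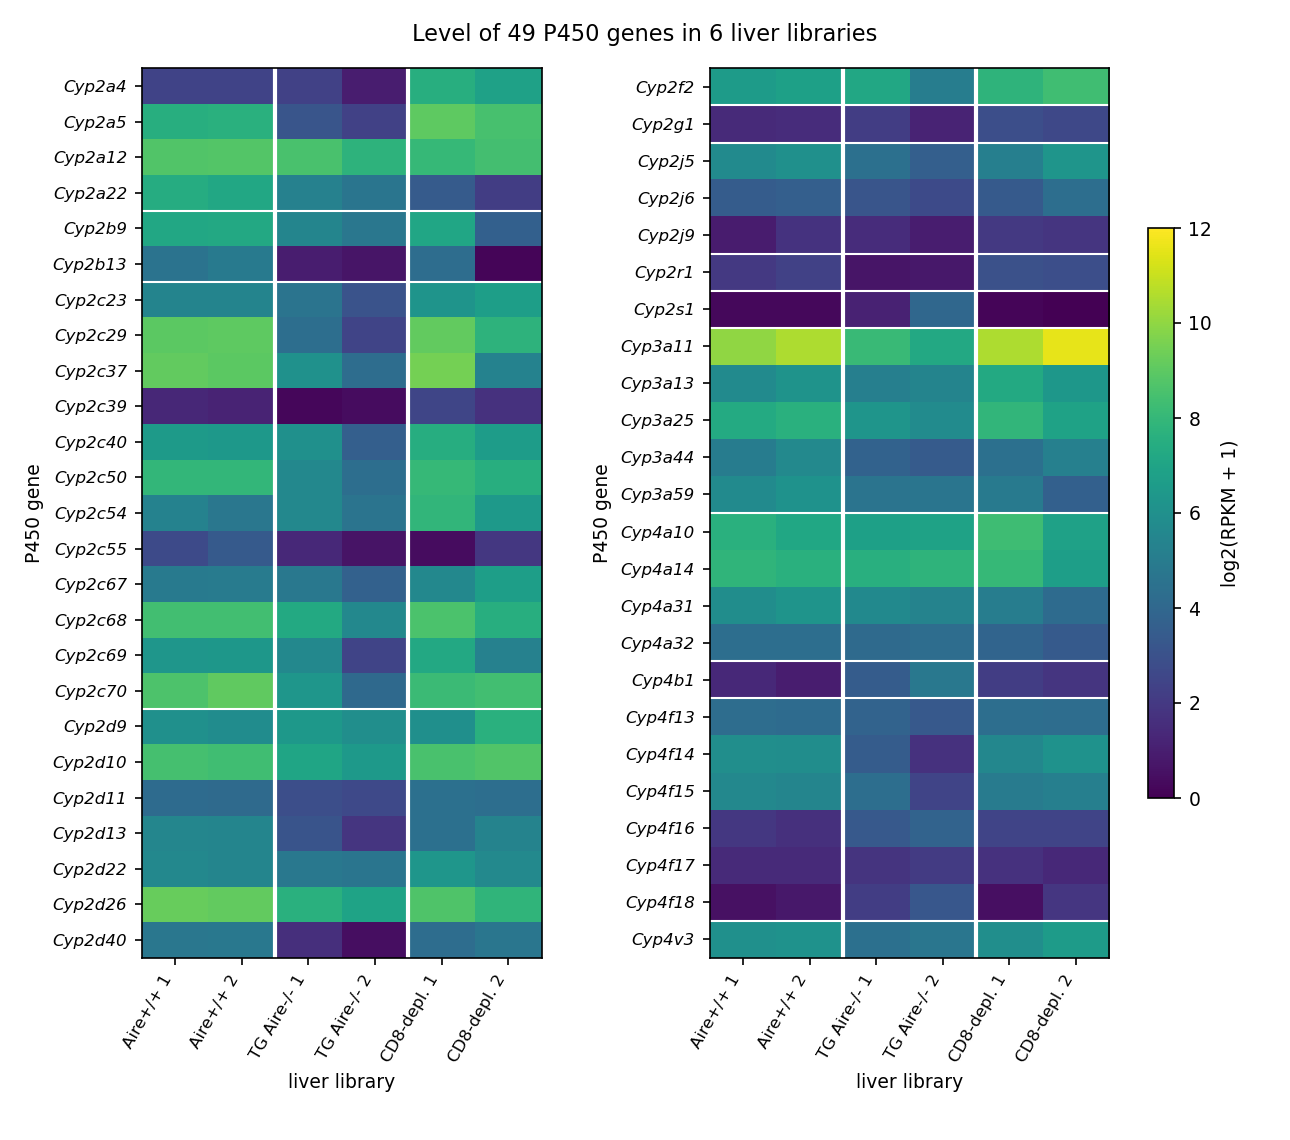
Level of the 49 tested P450 genes as log2(RPKM + 1) (colour scale) in the 6 liver libraries (columns); white lines part the groups and the subfamilies. Darker colours are lower levels: TG Aire-/- replicate 2 is the darkest column for Cyp2c29, Cyp2c69 and Cyp2d40, Cyp3a11 is the brightest row, and Cyp2s1, Cyp4b1, Cyp4f16 and Cyp4f18 are brightest in TG Aire-/- replicate 2.

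Replicates agreed closely in control liver and poorly in both other groups. Among members with a group mean of at least 5 RPKM, 0 of 39 differed by more than 1 on the log2(RPKM + 1) scale between the Aire+/+ libraries, although these were of opposite sex, where 0.458% of all genes at that level did. The count was 16 of 40 in TG Aire-/- livers, against 12.6% of all genes, and 15 of 41 in CD8-depleted livers, against 14.2%. In the TG Aire-/- group 13 of the 16 were lower in replicate 2, among them 9 Cyp2c genes led by Cyp2c69 (48.03 against 4.52 RPKM), and Cyp2s1, Cyp4b1 and Cyp4f18 were higher there. That library also had the lower geometric mean of the 15 hepatocyte secretory genes, 832 against 1442 RPKM in replicate 1 and 2138 to 2386 in Aire+/+ livers.

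In the CD8-depleted group 11 of the 15 were lower in replicate 2, led by Cyp2c37 (709.5 against 39.3 RPKM), Cyp2b13 (18.7 against 0.122) and Cyp2b9 (136 against 11.97). Cyp2d9, Cyp2j5, Cyp2c67 and Cyp3a11 were higher there. The non-members Cyp4a12a and Cyp4a12b, known as male-predominant in adult liver, stood at 52.3 and 26.5 RPKM in replicate 2 and at 0.0253 to 0.256 in the other 5 livers. Acute-phase genes parted the same 2 libraries: Saa1 stood at 17.6 and 747 RPKM, Orm1 at 263 and 2656, and Lcn2 at 82.8 and 2346. The part of the acute-phase genes in this difference was not tested.

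**Figure D5:**
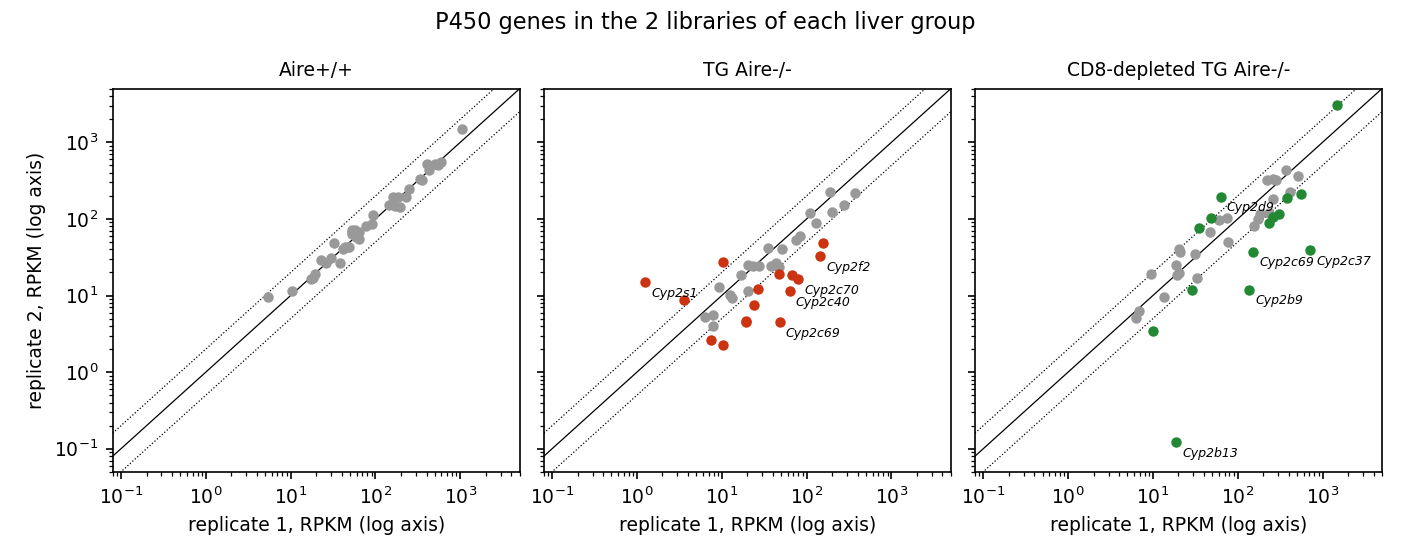
RPKM of P450 genes in replicate 1 (horizontal log axis) against replicate 2 (vertical log axis) for each liver group, for members with a group mean of at least 5 RPKM; the solid line marks equal values, dotted lines a factor of 2, and coloured points differ by more than 1 on the log2(RPKM + 1) scale. No Aire+/+ point is coloured, 16 TG Aire-/- and 15 CD8-depleted points are, and the 5 that differ most are named in each of those panels.

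Genes that regulate P450s were followed by a list of 31. This and the lists below are read against all genes tested, of which 5.5% fell and 31.8% rose in the first comparison and 4.49% rose and 33.5% fell in the second. In TG Aire-/- liver 8 fell and 2 rose, with a median of −0.57, and after depletion 5 rose and 1 fell. Nr1i3, which encodes CAR, stood at 66.6 and 57.3 RPKM in Aire+/+ livers, 9.02 and 8.38 in TG Aire-/- livers and 47.8 and 41.4 in CD8-depleted livers. It fell (log2 difference −2.69, SE 0.26, adjusted p = 0.00184) and rose (log2 difference 2.23, SE 0.26, adjusted p = 0.00214), with no overlap between groups. Nr1i2, which encodes PXR, stood at 23.2 and 26.5, 20.2 and 16.5, and 16.98 and 15.08 RPKM and passed in no comparison (log2 −0.42, adjusted p = 0.222 in the first). The bile acid responsive repressor Nr0b2 (log2 −1.92, adjusted p = 0.0116), the growth hormone receptor Ghr (log2 −1.91, adjusted p = 0.00334) and Cebpa (log2 −1.73, adjusted p = 0.00958) fell as well, and Onecut1 rose (log2 1.68, adjusted p = 0.0347). After depletion Tef (log2 1.46, adjusted p = 0.00703) and Ghr (log2 1.45, adjusted p = 0.00793) rose. Hnf4a did not pass (log2 −0.93, adjusted p = 0.0646). Against Aire+/+ liver 0 of the 31 passed in CD8-depleted liver in limma and 11 had an unadjusted p under 0.05.

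Of 8 electron partners and membrane helpers 2 fell in TG Aire-/- liver and 3 rose after depletion. Cyb5a, the microsomal cytochrome b5, stood at 883 and 803, 301 and 206, and 608 and 595 RPKM. It fell (log2 −1.75, adjusted p = 0.00929) and rose (log2 1.27, adjusted p = 0.0278). Por, the reductase that serves all microsomal P450s and is in the regulator list too, did not pass (log2 −0.94, adjusted p = 0.176). Among 12 genes of haem synthesis and breakdown 1 fell and 2 rose, 3 called of 12 where 37.3% of all genes were. The risers were Hmox1 (log2 3.83, adjusted p = 0.00251), the enzyme that breaks haem down, and Blvra (log2 1.06, adjusted p = 0.0151), and both fell after depletion (log2 −3.52, adjusted p = 0.00303 and log2 −1.47, adjusted p = 0.00539).

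Other targets of the same receptors were counted beside the P450s. Of 11 CAR and PXR targets 3 fell and 1 rose in TG Aire-/- liver, with a median of −0.18, so that the 4 called of 11 came near the 37.3% of all genes. The organic anion transporter Slco1a4 fell (log2 −4.47, adjusted p = 0.003004) and rose after depletion (log2 3.35, adjusted p = 0.00742), Ces2a fell (log2 −2.31, adjusted p = 0.00581) and Gsta1 rose (log2 3.23, adjusted p = 0.0135). Of 16 PPARα targets 1 fell and 3 rose, with a median of −0.12, where 31.8% of all genes rose. The risers were Pdk4 (log2 3.19, adjusted p = 0.0107), Acot2 (log2 2.62, adjusted p = 0.003099) and Acot1 (log2 2.18, adjusted p = 0.0139). After depletion 6 of the 16 fell, near the 33.5% of all genes. Of 4 tested targets of the aryl hydrocarbon receptor, Ugt1a6a (log2 −2.56, adjusted p = 0.00219) and Ugt1a6b (log2 −2.56, adjusted p = 0.00235) fell, which share exons with each other and with Ugt1a1 and may share reads. The cytokine and acute-phase list, with 15 genes tested, had 4 that rose, where 31.8% of all genes did, and 1 that fell. Its median was −0.73. Il1b was among the risers (log2 2.86, adjusted p = 0.01103). Socs1, the largest riser (log2 3.24, adjusted p = 0.00571), reached the filter only through the TG Aire-/- libraries. It stood at 0.277 and 0.441, 22.95 and 5.85, and 0.640 and 1.85 RPKM in the 3 groups, and its difference is a description.

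Of 11 tested pericentral genes outside the P450 family, all 11 fell in TG Aire-/- liver, with a median of −1.72, and 7 rose after depletion. They were led by Rgn (log2 −5.35, adjusted p = 0.001705) and Lect2 (log2 −4.72, adjusted p = 0.00178). Of 11 periportal genes 1 fell (Gls2, log2 −1.65, adjusted p = 0.0498) and 1 rose (Cdh1, which bile duct cells express too, log2 1.66, adjusted p = 0.0169). Their median was −0.79, against 0.53 over all genes. After depletion 2 of the 11 rose and 1 fell, with a median of 1.17. Of the 15 hepatocyte secretory genes 5 fell, with a median of −0.97, so the median of the tested P450s lay between those of the secretory and the pericentral list. The part of zonation and of hepatocyte number in the P450 values was not tested. Leukocyte markers rose in 12 of 12, endothelial markers in 6 of 6, erythroid markers in 7 of 7, stellate and fibroblast markers in 5 of 8 and cholangiocyte markers in 2 of 5.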

How the data were processed

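Total RNA of 6 livers was sequenced, per the labels. The authors deposited RPKM values for each gene. Per the submitters' processing notes the aligner was STAR 2.5.2b and the build mm10, while the annotation, and how reads matching several genes were counted, is not given in the sources used here. Depth was estimated from the size of 1 read among low values, of which 55.3% to 62.5% came out whole within 0.1 read, too few to recover counts.

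Tests used log2(RPKM + 1) and limma 3.58.1 (R 4.3.3), so folds of low genes are understated on that scale. Genes with at least 1 RPKM in at least 2 of the 6 livers entered 1 fit over 3 groups with a trended prior, and p-values were Benjamini-Hochberg adjusted over all 12231 genes at a threshold of 0.05. Folds are ratios of mean RPKM. The fit was also run on simulated data that gave every group the same spread for each gene. That simulation could not show how the fit behaves where groups differ in spread, as they did here. Near-identical copies were defined by at least 95% identity of GENCODE M21 coding sequences, counted over the longer sequence of a pair. Coding sequences, aligned with Biopython 1.88, took the place of the protein sequences first planned. Promoters came from RefSeq on GRCm38.p6.

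Members and gene lists were chosen with earlier results of these data known. By rule, values in every library were given for the leading member of each subfamily, the largest changes, members called after depletion and members that went against their subfamily. Alternatives covered the pseudocount, the filter, scaling, the groups fitted, sex, a replicate block and each library left out. Another 4 livers of the series were not analysed here.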

Additional observations from a re-analysis of the deposited data

Results flagged for a closer look

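Outside the liver comparisons, P450 genes had a signal of at least 1 RPKM in every library of a tissue in 5 cases, which is what drew attention to them. The thymus libraries came from untreated C57BL/6 mice of the same age range, 3 each of Aire-/- without the transgene, TG Aire+/- and TG Aire-/-, and the liver CD8+ T cell libraries were 1 of each of these genotypes. All are pooled here. In the 9 thymus libraries the median was 6.82 RPKM for Cyp4f13 and 3.80 RPKM for Cyp4f16, and these were the 2 members at 1 RPKM or more in all 9. In the 3 libraries of liver CD8+ T cells the median was 4.97 RPKM for Cyp4f13, 1.48 for Cyp4f18, the neutrophil leukotriene hydroxylase, and 2.52 for Cyp4v3. These tables were normalized separately from that of liver, so the levels are not compared with those in liver, and the values were not tested.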

How the results depend on the processing

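No called P450 gene changed sign under any alternative. For TG Aire-/- against Aire+/+ liver 10 to 29 members passed when single libraries were left out. Of all genes 4565 passed, against 2826 with a filter of 5 RPKM, 8194 when scaled to the hepatocyte list and 1270 to 5102 with single libraries left out. Median-of-ratios scaling changed their split from 673 lower and 3892 higher to 1545 and 1763. For CD8-depleted against TG Aire-/- liver 18 members passed with sex as a covariate and 15 to 29 with single libraries left out. Of all genes 4646 passed, against 2867 with the 5 RPKM filter, 2842 by median-of-ratios, 2622 by quantile normalization, 2945 with sex and 1294 to 4723 with libraries left out. For CD8-depleted against Aire+/+ liver 0 members passed without a filter, 1 with only the 2 groups fitted and 1 to 5 with libraries left out. Of all genes 67 passed, against 33 with a pseudocount of 5, 17 without a filter, 130 with the hepatocyte scaling, 17 with only the 2 groups, 16 with sex and 13 to 141 with libraries left out. The cause of these changes was not tested. With an arm of 1 library, that library is assumed to vary like the other groups. Replicate numbers did not pair the samples (correlations of deviations 0.29, −0.09 and −0.15), and a replicate block gave 30, 33 and 2 members. With 2 libraries per group, differences smaller than the spread between replicates could not be detected, and low members are limited by depth.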

Other observations

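In thymus, 14 of the 72 P450 genes reached 1 RPKM in at least 1 of 9 libraries and 10 were at 0 in all. Cyp2a5, the coumarin 7-hydroxylase, ranged from 0.787 to 6.49 RPKM with a median of 5.46. Cyp1b1 ranged from 0.751 to 10.6 RPKM with a median of 1.77, Cyp4f18 from 0.571 to 10.3 with a median of 1.12, and Cyp4v3 from 0.878 to 7.79 with a median of 1.85. In liver CD8+ T cells 7 members reached 1 RPKM in at least 1 of 3 libraries and 30 were at 0 in all. Cyp2s1, which was highest in TG Aire-/- liver, stood at 0.864 to 3.14 RPKM there, with a median of 1.77.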
